A study of Mus musculus with 31 samples.

Results

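Complement components are the subject here: the 3 chains of C1q (C1qa, C1qb and C1qc), C3, C4b, the C3a receptor C3ar1, the complement receptor chain Itgam and the C1 inhibitor Serping1. These 8 genes were taken by name, as probe sets whose gene symbol in the array annotation is one of them, by a rule that holds no measured value but was written with earlier results of these data known. The annotation used here gave 11 probe sets for 7 of the 8 genes, among 45037 mouse probe sets on the array, and C3 was not analysed here. A probe set was tested where 3 or more of the 31 arrays gave it a signal above their own median, which held for 10 of the 11 probe sets and thus for all 7 genes, within a total of 26877 probe sets and 12845 genes. C4b has a single probe set, which is also listed for its near copy C4a, so the value is given as C4a/C4b. RefSeq's table for GRCm38.p6 enters C4a as a transcribed pseudogene.

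The values are hippocampal RNA signals of 31 male C57BL/6 mice, 1 mouse to an array, at 10 days, 4.5, 9, 14.5 and 20 months of age. The Glud1 Tg mice carry an inserted open reading frame of Glud1, the gene of glutamate dehydrogenase, and over-express the enzyme in neurons, and the other mice were wild type (wt). The promoter of the transgene is not given in the sources used here. There were 3 mice of each genotype at each age, except for 4 wt mice at 10 days, so that ages were compared over 7 mice at 10 days and 6 at each later age. Signals are in arbitrary units, so levels were not compared between genes, and where signals were summed, averaged or set against array medians or markers, only their differences between mice are read.

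Complement is a protein cascade of innate immunity. In its classical pathway C1q, built from the products of C1qa, C1qb and C1qc, binds a target and activates the proteases C1r and C1s, which cleave C4 and C2 so that C3 is cleaved and its fragments are deposited. The receptor formed by Itgam (CD11b) and Itgb2 recognizes deposited C3 fragments, C3ar1 senses the released fragment C3a, and the product of Serping1 blocks C1r and C1s. In the brain C1q comes mainly from microglia, C4 from astrocytes and other glia, and during postnatal development C1q, C3 and Itgam take part in the removal of synapses by microglia.

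C1qb, C1qc and C1qa lie next to each other on chromosome 4 of the mouse, while C4b lies on chromosome 17, C3ar1 on chromosome 6, Itgam on chromosome 7 beside the related gene Itgax, and Serping1 on chromosome 2. RefSeq promoter sequences, which run from 250 bases before to 50 bases after the start of a gene in GRCm38.p6, were matched for 4 of the 7 measured genes. They were searched on both strands for GAGGAA, a core bound by the myeloid factor PU.1, because the C1q chains, C3ar1 and Itgam are genes of microglia and macrophages, and for TTCNNNGAA, a STAT element. These are the 4 windows that held GAGGAA before the start site, with the match in capitals (TTCCTC is GAGGAA on the other strand).
C1qb, chr4:136886213-136886242, minus strand, match 24 bases before the start: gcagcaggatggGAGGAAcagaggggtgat
C1qc, chr4:136893090-136893119, minus strand, match 187 bases before the start: gacggcagacacTTCCTCattttggcacac
Itgam, chr7:128062544-128062573, plus strand, match 78 bases before the start: tgttttctcccgGAGGAAggctacagaggg
Itgam, chr7:128062613-128062639, plus strand, match 9 bases before the start: tctcatagctttTTCCTCatacttctc
The promoter of Itgam held 3 matches in all, those of C1qb and C1qc 1 each, and that of C3ar1 0. GAGGAA was present in 28.3% of all 32851 promoters of the same length, and TTCNNNGAA in 8.3% of them and in 0 of these 4. A match describes the letters of a promoter and shows no binding.

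Several facts of the arrays touch the ages compared. Array medians ran from 91.4 to 140, and no value is 0. At 10 days the medians lay between 91.43 and 101.9, below every array of the later ages, where the lowest was 104.5. At 4.5 months they lay between 115 and 132.8. Signals of the complement genes given below are as deposited, while their log2 changes come from quantile normalized values. The log2 ratio of the 3' to the 5' control probe sets of Gapdh, a measure of RNA integrity and labelling, lay between -0.078 and 0.018 at 4.5 months, above every array of the other ages, where it lay between -0.463 and -0.14. Its part in the changes to and from 4.5 months was not tested. Values with 9 months in place of 4.5 months are given beside some of those changes. At 9 months the same ratio for actin was the highest, between 0.709 and 0.963. The arrays of 20 months also differed from those of 4.5 months in both controls. Their actin ratio lay between 0.507 and 0.552, against 0.353 to 0.462 at 4.5 months, and their Gapdh ratio between -0.463 and -0.433. The part of the actin ratio in the changes with age was not tested. The summed signal of 8 choroid plexus markers ran from 670.9 to 45550 within the mice of 4.5 months alone, and that of 7 meningeal fibroblast markers ran from 2978 to 7200 at 9 months and from 2759 to 8594 at 20 months. All 8 markers of hippocampal neurons passed the filter, and their summed signal lay between 17840 and 24280 at all ages. At 4.5 months the sum ran from 20340 to 21600 in wt and from 22360 to 24280 in Tg mice. At 9 months it ran from 17840 to 19270 in wt and from 19690 to 22590 in Tg mice. The genotypes overlapped at the other ages, and the part of this difference in the comparisons of Tg with wt mice was not tested.

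**Figure D1:**
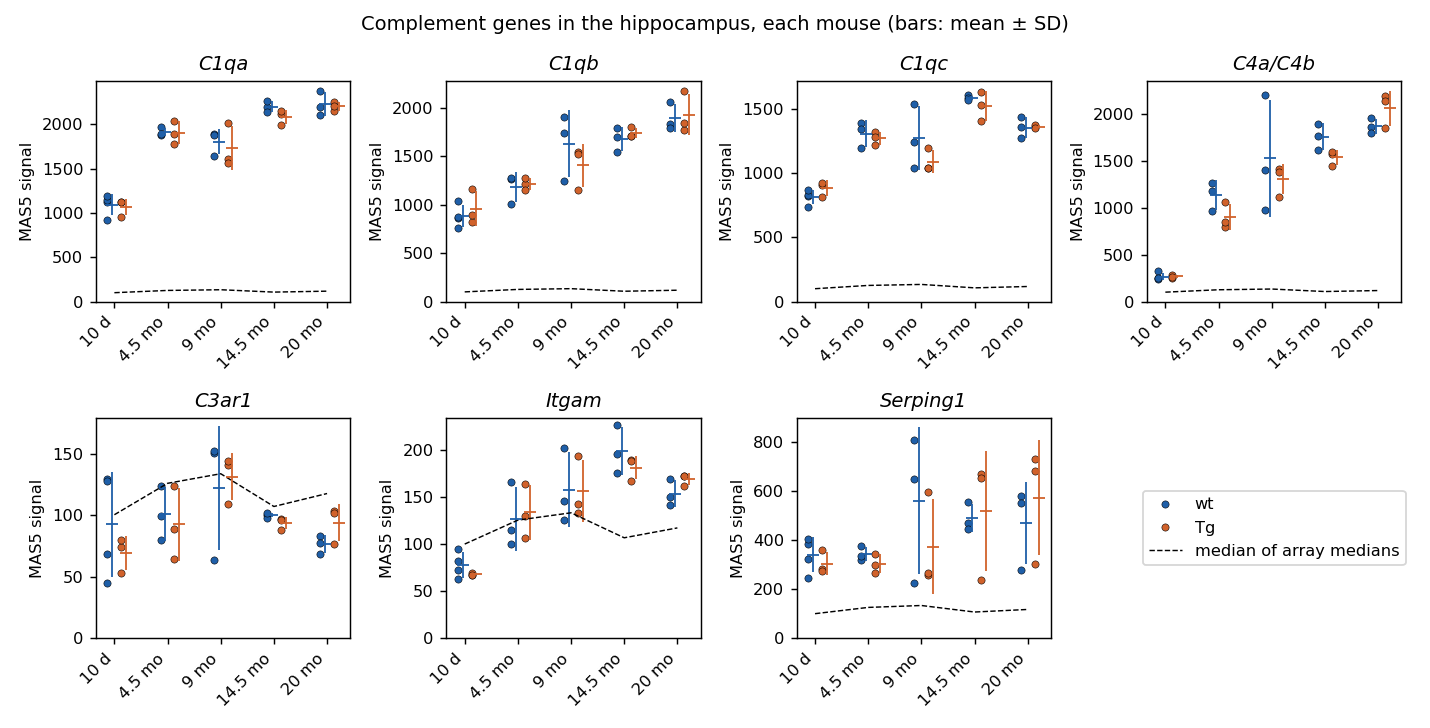
MAS5 signal (vertical axis, arbitrary units from 0) of the chosen probe set of each complement gene at 5 ages (horizontal axis), with a point for each wt or Tg mouse, bars for the mean and SD of a group, and a dashed line for the median of the array medians. C1qa, C1qc and C4a/C4b at 4.5 months lie above all mice of 10 days, C3ar1 lies near the dashed line, and Serping1 spreads widely from 9 months on.

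From 10 days to 4.5 months 5 of the 7 genes measured rose and 0 fell (limma, adjusted p under 0.05), where 31.2% of all genes rose and 35.5% fell. The 5 were C1qa, C1qb, C1qc, C4a/C4b and Itgam, and the median change of the 7 was 0.48 on the log2 scale against -0.04 for all genes. The largest was that of C4a/C4b, the component that C1s cleaves, which was 3.45-fold higher at 4.5 months. In bulk tissue fewer cells of a type and less RNA per cell cannot be told apart, here and in every comparison that follows.

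C4a/C4b had signals from 236.9 to 322.3 with a median of 256.2 in the 7 mice of 10 days, and from 796.5 to 1263 with a median of 1009 in the 6 mice of 4.5 months. The groups did not overlap, and the change was 1.79 ± 0.116 (log2, SE; adjusted p = 7.46e-14). It was 1.98 ± 0.158 in wt and 1.59 ± 0.169 in Tg mice. From 10 days to 9 months it was 2.27, and 5 of 7 complement genes rose over that interval, where 29.7% of all genes did.

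Of the 3 chains of C1q, C1qa gave signals from 924.9 to 1188 (median 1121) at 10 days and from 1782 to 2038 (median 1892) at 4.5 months. C1qc ran from 737.5 to 926 (median 827.8) and from 1193 to 1387 (median 1299) at the same ages. For both chains every mouse of 4.5 months lay above every mouse of 10 days, as it did for C4a/C4b, and 20.1% of all genes showed the same separation. C1qa rose by 0.81 ± 0.061 (adjusted p = 1.26e-12) and C1qc by 0.56 ± 0.068 (adjusted p = 2.87e-08). The changes from 10 days to 9 months were 0.73 for C1qa and 0.45 for C1qc.

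C1qb has 3 probe sets, and they did not move together at this stage. The probe set with the highest mean ran from 765.4 to 1162 (median 874) at 10 days and from 1009 to 1280 (median 1238) at 4.5 months, and rose by 0.34 ± 0.095 (adjusted p = 0.00264), with groups that overlapped. The other two had medians of 651 and 789.9 at 10 days and of 572.9 and 737.6 at 4.5 months, changes of -0.18 ± 0.086 (adjusted p = 0.0635) and -0.18 ± 0.094 (adjusted p = 0.0999). The rise of C1qb before 4.5 months therefore rests on 1 of its 3 probe sets, in which the change to 9 months was 0.70. To 9 months the others changed by 0.26 (adjusted p = 0.00987) and 0.14 (adjusted p = 0.191).

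Itgam, the CD11b chain of the receptor for C3 fragments, gave low signals, which exceeded the array median on 21 of 31 arrays. They ran from 62.77 to 95.38 (median 69.7) at 10 days and from 100.4 to 165.9 (median 122.8) at 4.5 months. The deposited signals of these ages did not overlap, while the quantile normalized values did, and Itgam rose by 0.48 ± 0.151 (adjusted p = 0.00723). Without quantile normalization the change was larger, 0.82 ± 0.155 (adjusted p = 3.6e-05). Neither C3ar1, at 0.00 ± 0.256, nor Serping1, at -0.14 ± 0.299, passed the test between these ages.

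Split by genotype, 4 of 7 genes rose from 10 days to 4.5 months in wt mice, where 26.3% of all genes rose, and 4 of 7 in Tg mice, where 25.7% did. C1qa, C1qc and C4a/C4b were among the 4 in both genotypes. The fourth was C1qb in wt mice and Itgam in Tg mice, and neither gene's change differed between genotypes in the interaction test given further on.

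**Figure D2:**
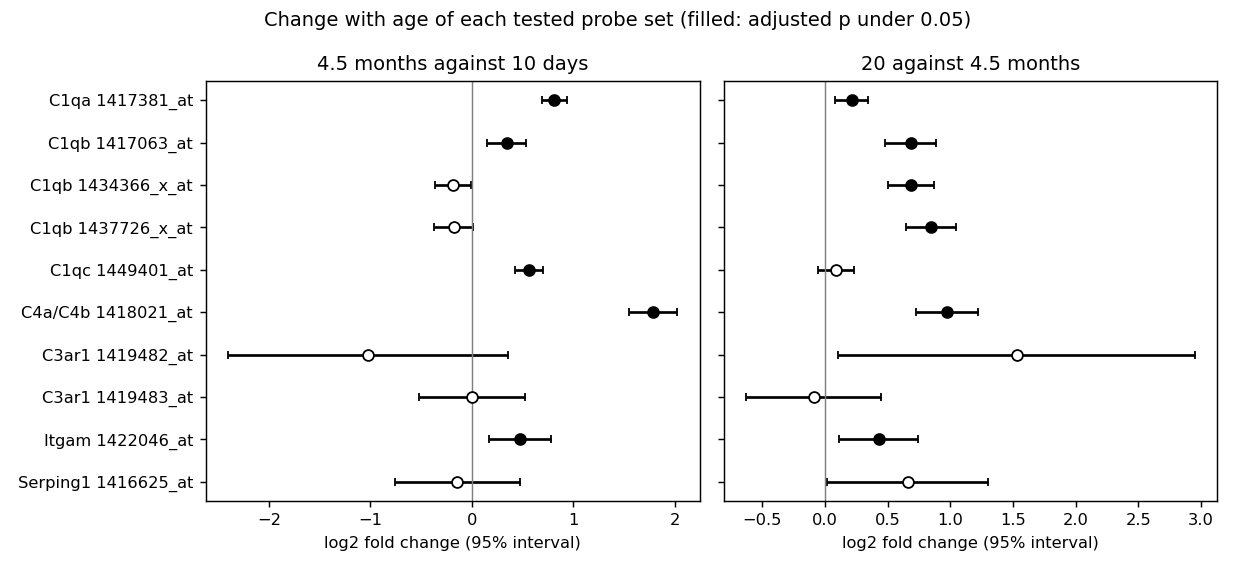
Log2 fold change with its 95% interval (horizontal axis) of each of the 10 tested probe sets (vertical axis) from 10 days to 4.5 months (left) and from 4.5 to 20 months (right), filled where the adjusted p was under 0.05. C4a/C4b shows the largest change of the probe sets filled in both panels, at 1.79 and 0.97, and the 3 probe sets of C1qb part at left and lie together at right.

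From 4.5 to 20 months 4 of the 7 genes rose again and 0 fell, where 22.4% of all genes rose and 19.9% fell. The 4 were C1qa, C1qb, C4a/C4b and Itgam, and the median of the 7 was 0.43 against 0.03 for all genes. C4a/C4b was 1.96-fold and C1qb 1.60-fold higher at 20 months. C1qc, the third chain of C1q, did not pass. From 9 to 20 months 4 of 7 genes also rose, where 21.7% of all genes did, but with C1qc in place of Itgam, and the changes of C4a/C4b (0.49) and C1qb (0.32) were smaller.

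C4a/C4b ran from 1790 to 2190 with a median of 1902 at 20 months, above each of the 6 mice of 4.5 months. It rose by 0.97 ± 0.12 (adjusted p = 1.44e-07). C1qb in its chosen probe set ran from 1775 to 2176 (median 1842) and rose by 0.68 ± 0.098 (adjusted p = 1.85e-06). Its other two probe sets rose by 0.68 ± 0.089 (adjusted p = 3.14e-07) and 0.85 ± 0.097 (adjusted p = 3.16e-08), so that all 3 rose in adult life.

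C1qa ran from 2109 to 2373 (median 2203) at 20 months and rose by a smaller amount, 0.21 ± 0.063 (adjusted p = 0.00824). In the 3 genes C1qa, C1qb and C4a/C4b every mouse of 20 months lay above every mouse of 4.5 months, which 11.8% of all genes also showed. C1qc ran from 1271 to 1435 (median 1358), overlapping with the 4.5-month range given above, and its change was 0.09 ± 0.07 (adjusted p = 0.357).

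Itgam ran from 141.7 to 173.3 (median 166) at 20 months, with 2 mice of 4.5 months inside that range, at 164.7 and 165.9, and rose by 0.43 ± 0.156 (adjusted p = 0.0298). This call was lost without quantile normalization (0.33, adjusted p = 0.105), without the filter on low signals (adjusted p = 0.0548) and without each of 5 single mice. Those mice were Tg replicate 1 (adjusted p = 0.0941), wt replicate 1 (adjusted p = 0.0714) and wt replicate 3 (adjusted p = 0.0722) at 4.5 months and Tg replicate 3 (adjusted p = 0.0625) and wt replicate 3 (adjusted p = 0.0664) at 20 months.

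The single steps between ages passed as follows, and whether they differed between genes was not tested. Between 4.5 and 9 months 2 of 7 genes rose, where 20.7% of all genes did, and these were C4a/C4b (0.49 ± 0.12, adjusted p = 0.0015) and C1qb (0.36 ± 0.098, adjusted p = 0.00346). Between 9 and 14.5 months 3 rose, where 26.3% of all genes did, and these were C1qc (0.34 ± 0.07, adjusted p = 0.000183), C1qa (0.23 ± 0.063, adjusted p = 0.00302) and Itgam (0.43 ± 0.156, adjusted p = 0.0217). Between 14.5 and 20 months 0 of the 7 chosen probe sets passed, where 18.3% of all genes rose, with 2 of 7 at an unadjusted p under 0.05. The probe set of C1qb with the largest change in adult life did rise in that last step, by 0.29 ± 0.097 (adjusted p = 0.0202). It also rose between 9 and 14.5 months, by 0.24 ± 0.097 (adjusted p = 0.0416). The remaining probe set of C1qb passed in neither of these steps (adjusted p = 0.375 between 9 and 14.5 months and 0.225 in the last).

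The 5 levels of each gene show the same steps. C1qa had medians of 1121, 1892, 1762, 2145 and 2203 from the youngest to the oldest mice, where the difference between 4.5 and 9 months (-0.09 ± 0.063) did not pass, nor did that between 14.5 and 20 months (0.07 ± 0.063). C1qc had its highest median, 1577, at 14.5 months, and the lower median of 1358 at 20 months did not pass the test against it (-0.15 ± 0.07, adjusted p = 0.103). From 4.5 to 14.5 months 4 of 7 genes rose, where 14.9% of all genes did, and C1qc was one of them (0.24 ± 0.07, adjusted p = 0.0097) while C1qa was not (0.15 ± 0.063, adjusted p = 0.0731).

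Itgam was likewise highest at 14.5 months, from 167.4 to 226.6 with a median of 189, and the difference between 20 and 14.5 months, -0.23 ± 0.156, did not pass (adjusted p = 0.27). For C4a/C4b the medians were 256.2, 1009, 1389, 1600 and 1902, so that its median was higher at every age than at the one before. The steps from 9 to 14.5 months (0.20 ± 0.12, adjusted p = 0.169) and from 14.5 to 20 months (0.29 ± 0.12, adjusted p = 0.0648) did not pass on their own.

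Over the whole span from 10 days to 20 months 5 of the 7 genes rose, where 29.9% of all genes did. C4a/C4b rose by 2.76 ± 0.116 (adjusted p = 5.49e-18), C1qa by 1.03 ± 0.061, C1qb by 1.02 ± 0.095, Itgam by 0.90 ± 0.151 and C1qc by 0.65 ± 0.068. The other probe sets of C1qb rose by less, 0.50 ± 0.086 (adjusted p = 1.2e-05) and 0.67 ± 0.094 (adjusted p = 4.56e-07). C3ar1 and Serping1 were at -0.09 ± 0.256 and 0.51 ± 0.299. An F-test over the 5 ages passed for the same 5 genes and for neither of the other two in wt mice, where 75.6% of all genes passed, and also in Tg mice, where 74.0% passed.

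C3ar1, the receptor for the fragment C3a, has 3 probe sets, all of low signal. The untested one exceeded the median of its array on 1 array, and each of the others did on 6. The chosen probe set had medians of 74.22, 93.91, 142.4, 97.39 and 80.37 from the youngest to the oldest mice, and its lowest and highest signals, 44.83 and 152.2, lay on either side of the array medians. The second probe set moved by -1.03 ± 0.672 to 4.5 months (adjusted p = 0.186) and by 1.53 ± 0.694 from there to 20 months (adjusted p = 0.0835). In Tg mice alone the latter change was 2.71 ± 0.982 (adjusted p = 0.0458), from a group at 4.5 months whose age held signals as low as 5.759, while in wt mice it was 0.35 ± 0.982. The 2 tested probe sets thus gave opposite signs in adult life, and no direction is given for C3ar1.

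Serping1 encodes the inhibitor of C1r and C1s, and its signals spread widely between mice of the same age from 9 months on. It ran from 245.5 to 406.1 (median 324.6) at 10 days, from 267.2 to 374.8 (median 326.9) at 4.5 months, and then from 226 to 806.9 (median 430.7) at 9, from 236.4 to 670.2 (median 512.3) at 14.5 and from 276.3 to 731.8 (median 565.5) at 20 months. The ages overlapped throughout. Its change from 4.5 to 20 months was 0.66 ± 0.309 and did not pass (adjusted p = 0.0978).

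Single mice lay far from others of their group in both genotypes. At 9 months the wt mice had 226, 806.9 and 648.3 and the Tg mice 259.6, 265 and 596.4. At 20 months the wt mice had 580.7, 550.3 and 276.3 and the Tg mice 731.8, 683 and 304.1. The lowest wt mouse at 9 months also had the lowest mean log2 level of the 7 meningeal fibroblast markers of all 31 mice, 7.05, where the highest was 10.46.

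The deviation of Serping1 from its group mean followed that of these markers, with a Pearson r of 0.946 and a Spearman rho of 0.938 over the 31 mice (permutation tests within groups, two-sided, both p = 1e-05, the smallest that 100000 permutations can give). Among 77 relations of the 7 genes with 11 marker lists both values had an adjusted p of 0.00077, and r was 0.914 without the 2 mice farthest from the median. The markers of border macrophages gave an r of 0.759 (permutation test, adjusted p = 0.0316) and a rho of 0.688 (permutation test, adjusted p = 0.0597), and no other of the 77 relations passed by r. With the mean of the meningeal markers as a covariate, an alternative chosen after seeing the data, Serping1 changed by 0.89 ± 0.132 from 10 days to 4.5 months (adjusted p = 1.63e-06) and by 0.52 ± 0.109 from 4.5 to 20 months (adjusted p = 0.000331). Those markers were themselves higher at 10 days, with a summed signal from 6215 to 14420 against 3279 to 5757 at 4.5 months, 4 of 7 fell between these ages, and their part in the level of Serping1 was not tested further.

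**Figure D3:**
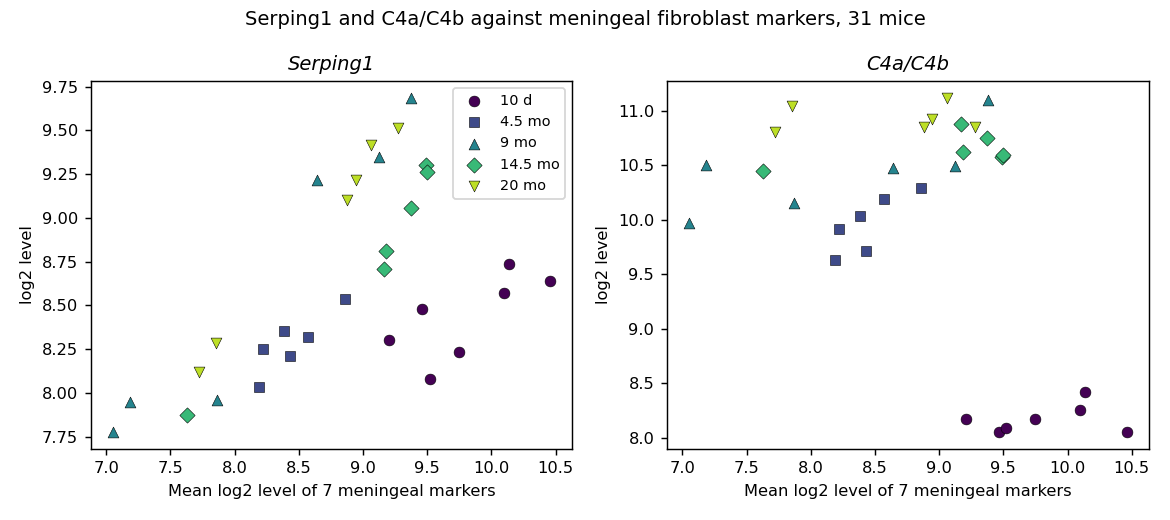
Log2 level (vertical axis, quantile normalized) of Serping1 (left) and C4a/C4b (right) against the mean log2 level of 7 meningeal fibroblast markers (horizontal axis) in 31 mice, with a symbol for each age. Serping1 rises with the markers within each age. The mice of 10 days lie to the right, with lower Serping1 than older mice of a like marker level, while C4a/C4b is ordered mainly by age.

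C4a/C4b did not follow the meningeal markers to the same degree, at an r of 0.513 (permutation test, adjusted p = 0.783) that was 0.329 without the 2 farthest mice. With the covariate 5 of 7 genes again passed from 10 days to 4.5 months, now with Serping1 and without Itgam. In the later interval, from 4.5 to 20 months, 5 passed, with Serping1 beside the 4 named above. The share of all genes that passed in that fit was not computed, so these counts cannot be set against it. Between pairs of the complement genes 0 of 21 relations of deviations passed. The largest in size, for C1qc with C4a/C4b, was 0.667 (permutation test, adjusted p = 0.413) and fell to 0.249 without the 2 farthest mice.

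Markers of microglia moved with age as well. Of 15 markers 14 were tested, of which 9 rose and 3 fell from 10 days to 4.5 months, with a median of 0.32, and 6 rose and 1 fell from 4.5 to 20 months, with a median of 0.13. Their summed signal ran from 9832 to 11040 at 10 days, from 14610 to 16420 at 4.5, from 15430 to 17190 at 9, from 13540 to 14580 at 14.5 and from 15730 to 17680 at 20 months. Csf1r, the receptor that microglia need to survive, changed by 0.66 ± 0.042 in the first interval (adjusted p = 4.07e-14) and by -0.05 ± 0.044 in the second (adjusted p = 0.409). Trem2, a receptor for lipids, was among the 3 that fell, by 1.14 on the log2 scale (SE 0.377, adjusted p = 0.0103), and then rose by 2.29 ± 0.39 (adjusted p = 2.87e-05). It is named here after its values were seen, and its changes lay far from the medians of the 14 markers.

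Set against the mean of the 14 markers, the log2 level of C1qb had a median difference of 1.03 at 10 days, 1.07 at 4.5, 1.35 at 9, 1.42 at 14.5 and 1.52 at 20 months. For C4a/C4b the difference went from -0.76 through 0.89, 1.14 and 1.28 to 1.49 at the same ages. For C1qa it was 1.19 at 10 days, 1.80 at 4.5, 1.48 at 9, 1.74 at 14.5 and 1.69 at 20 months, with overlap between 4.5 and 20 months. For C1qc it was 0.92, 1.20, 0.87, 1.28 and 1.01 at these ages, and its range at 20 months overlapped with that at 10 days. Border macrophages also make C1q, and of their 5 tested markers 4 fell from 10 days to 4.5 months and 2 rose from 4.5 to 20 months. Of 10 astrocyte markers 6 rose and 3 fell to 4.5 months, and 3 rose and 3 fell from 4.5 to 20 months. All 6 tested oligodendrocyte markers rose to 4.5 months, with a median of 4.52, and 0 rose or fell from 4.5 to 20 months. The shares of all genes that rose and fell in the same intervals were 31.2% and 35.5%, and then 22.4% and 19.9%. The part of any of these cell types in the changes of the complement genes was not tested.

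In no complement gene did the difference between Tg and wt mice pass with all mice in the fit. On the mean over 5 ages 0 of 7 passed, also at an unadjusted p under 0.05, where 0.0156% of all genes passed. The differences ran from -0.13 ± 0.193 for Serping1 to 0.01 ± 0.061 for C1qb. The 95% interval was -0.11 to 0.05 for C1qa, -0.12 to 0.06 for C1qc and -0.25 to 0.05 for C4a/C4b, and it was wider for Itgam, C3ar1 and Serping1.

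At single ages 0 of 7 passed, where 3.04% of all genes passed at some age and 2.99% at 9 months alone, or 0.693% of them there at a fold change of 1.3 or more with the adjusted p no higher than 0.01. The gene nearest to the threshold at 9 months was C1qc, with a difference of -0.21 ± 0.099 (adjusted p = 0.238), the only one of the 7 chosen probe sets at an unadjusted p under 0.05 at any age. Another probe set of C1qb differed by 0.32 ± 0.128 at 10 days (adjusted p = 0.567, unadjusted p = 0.0203 in limma). Without wt replicate 1 of 9 months, the mouse with the lowest meningeal markers, C1qc differed by -0.35 ± 0.096 (adjusted p = 0.0368) and was lower in Tg mice. In that fit 1055 probe sets of the array passed at 9 months. Without wt replicate 2 instead, C1qc differed by -0.07 ± 0.095 (adjusted p = 0.772). With any other single mouse of 9 months left out C1qc did not pass either, so the call depended on which wt mouse was dropped. C4a/C4b was lower in Tg mice at 4.5 months by 0.34 (95% interval -0.69 to 0.01, adjusted p = 0.849), where the wt mice had signals of 959.9, 1181 and 1263 and the Tg mice 796.5, 843.8 and 1058, so that the genotypes overlapped.

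**Figure D4:**
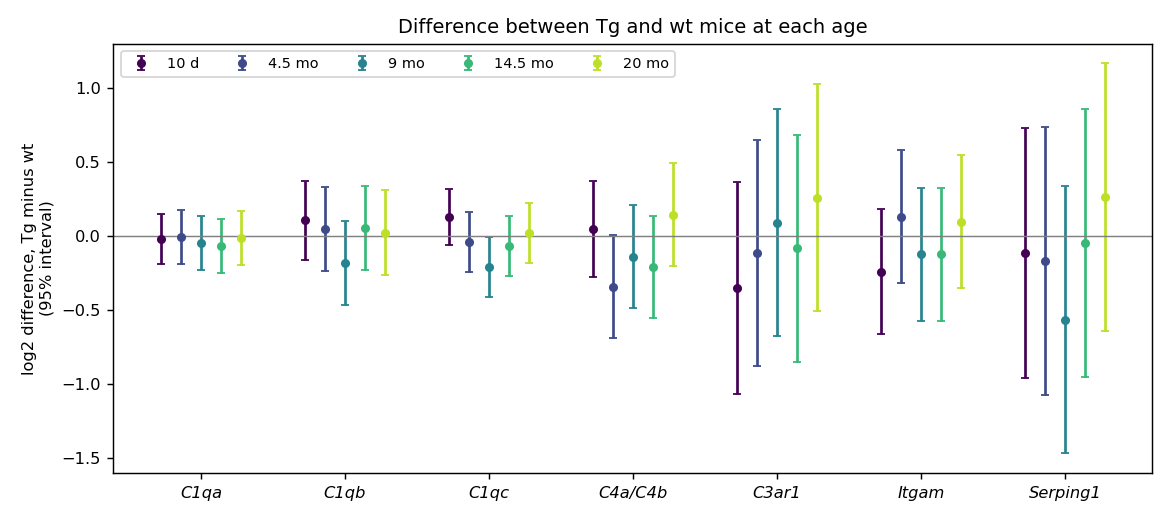
Log2 difference between Tg and wt mice (vertical axis, Tg minus wt) with its 95% interval for each complement gene (horizontal axis) at 5 ages, marked by colour. Every interval includes 0 except that of C1qc at 9 months, which runs from -0.42 to -0.01, and those of Serping1 and C3ar1 are the widest.

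The age changes themselves were compared between genotypes with interaction terms, and 0 of 7 passed for either interval, where 0.00779% of all genes passed for one of them. C4a/C4b rose from 4.5 to 20 months by 0.73 ± 0.169 in wt mice (adjusted p = 0.00151) and by 1.21 ± 0.169 in Tg mice (adjusted p = 3.16e-06), and the difference of 0.49 ± 0.239 had an adjusted p of 0.819. C1qb rose by 0.69 ± 0.139 and 0.67 ± 0.139. These were the 2 of 7 genes that passed in each genotype alone from 4.5 to 20 months, where 15.8% of all genes rose in wt and 12.1% in Tg mice. C1qa changed by 0.21 ± 0.089 in both, which passed in neither alone (adjusted p = 0.0745 in wt and 0.0915 in Tg mice).

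The rest of the pathway did not move as one group. Of 63 further complement genes listed by role, 27 were tested, and 14 rose and 7 fell from 10 days to 4.5 months, while 3 rose and 8 fell from 4.5 to 20 months. Of all genes 31.2% rose and 35.5% fell in the first interval, and 22.4% rose and 19.9% fell in the second. From 9 to 20 months 7 rose and 7 fell, where 21.7% of all genes rose and 17.9% fell. Of 6 analysed genes of the terminal pathway, which forms the membrane attack complex, 0 passed the filter on low signals, and of 8 of the lectin pathway 1 did. In none of the comparisons between Tg and wt mice did 1 of the 27 pass.

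Among partners of C1q, C1ra, the protease C1r that Serping1 inhibits, had signals from 3.256 to 38.76 at 10 days and from 33.76 to 90.97 at 4.5 months, all under the array medians, with a difference of 1.59 ± 0.652 (adjusted p = 0.0344). This call was lost with 50 added before log2, with a stricter filter, with the replicate block and without single mice such as Tg replicate 1 of 10 days. C2, which C1s cleaves after C4, was at 1.61 from 4.5 to 20 months (adjusted p = 0.0466) in 1 of 3 probe sets, and the others were at 1.27 (adjusted p = 0.132) and 0.12. The call of C2 was lost without quantile normalization, without or with a stricter filter, without trend and robust moderation, with the replicate block, with the median over probe sets and without most of the single mice. Ptx3, a pentraxin that C1q binds, fell by 2.99 on the log2 scale (SE 0.328, adjusted p = 4.06e-09), from a median of 354 at 10 days to 53.32 at 4.5 months. Masp1, a protease of the lectin pathway, fell by 2.22 (SE 0.082, adjusted p = 8.32e-20), from signals of 1052 to 1285 to signals of 254.7 to 274.9. Its other probe sets moved the same way by -1.30, -0.58 and -0.25, of which the last did not pass (adjusted p = 0.395).

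Of the regulators that limit complement, Clu, which keeps the membrane attack complex from inserting, rose by 0.97 ± 0.045 to 4.5 months (adjusted p = 1.55e-17), from a median of 10310 to 18150, and all 4 of its probe sets rose, by 0.76 to 0.97. Cd59a, which blocks the last step of that complex on the cell surface, rose by 0.99 (adjusted p = 3.72e-05), from a median of 245.4 to 469.6, and Cd55, which speeds the decay of convertases, fell by 1.26 (adjusted p = 6.29e-05). The other probe set of Cd59a was at 0.89 to 4.5 months and did not pass (adjusted p = 0.0827). From 4.5 to 20 months that probe set rose by 1.25 (adjusted p = 0.0332), while the chosen one was at 0.16 (adjusted p = 0.546). Cr1l (Crry), the membrane regulator of C3 and C4 in rodents, fell by 0.29 (adjusted p = 0.000576) and then rose by 0.34 from 4.5 to 20 months (adjusted p = 0.000363). Vtn, vitronectin, passed in neither interval, at -0.20 and 0.47 (adjusted p = 0.0781). Cfp, properdin of the alternative pathway, rose by 1.08 ± 0.206 (adjusted p = 4.57e-05) to 4.5 months, with its other probe set at 0.84 (adjusted p = 0.0554).

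Among 6 tested receptors 4 rose and 2 fell to 4.5 months, against the 31.2% and 35.5% of all genes. Itgb2, which pairs with Itgam and is named here after its values were seen, rose by 0.95 ± 0.146 (adjusted p = 1.68e-06), from a median of 76.22 to 169.6, and changed by 0.26 from 4.5 to 20 months without passing. Megf10, an astrocyte receptor that binds C1q, rose in both intervals, by 0.71 (adjusted p = 2.18e-08) and 0.46 (adjusted p = 9.52e-05). Calr, calreticulin, rose by 0.38 and then fell by 0.51, in the same directions in all 3 of its probe sets. Cd93, an endothelial protein once described as a C1q receptor, fell by 1.78 (adjusted p = 2.55e-10) to 4.5 months. From 4.5 to 20 months its chosen probe set was at -0.30 (adjusted p = 0.188) and its other probe set at -0.97 (adjusted p = 0.00254).

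Of 10 tested genes for proteins with complement control domains or related roles at synapses, 6 rose and 1 fell to 4.5 months, and 0 rose and 6 fell from 4.5 to 20 months, against 22.4% and 19.9% of all genes. From 9 to 20 months 3 of the 10 rose and 4 fell, so that the one-way fall depended on the reference age. Nptx1, a neuronal pentraxin, rose by 1.45 (adjusted p = 4.53e-19) and Sez6l2 by 0.97 (adjusted p = 4.13e-16). Their chosen probe sets were at 0.04 and -0.01 from 4.5 to 20 months. Their other probe sets were at -0.28 (adjusted p = 0.00295) and -0.51 (adjusted p = 1.36e-08). Sez6l rose by 1.49 (adjusted p = 1.56e-15) and fell by 1.32 (adjusted p = 3.78e-13), though its other probe set moved by 0.34 and -0.48. The medians of its chosen probe set were 824.5 at 10 days, 2429 at 4.5, 1464 at 9, 2116 at 14.5 and 1000 at 20 months, so the adult fall was not steady.

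**Figure D5:**
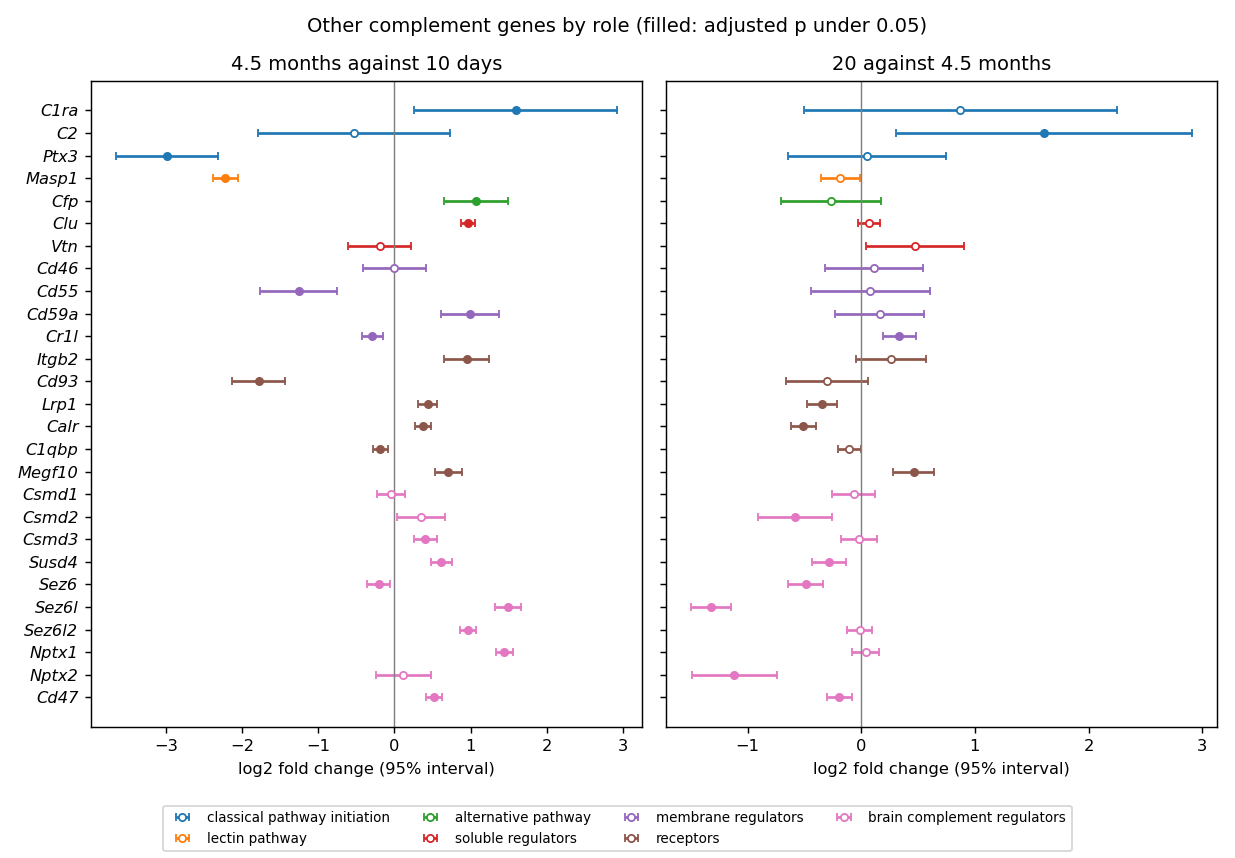
Log2 fold change with its 95% interval (horizontal axis) of 27 further complement genes (vertical axis, coloured by role) from 10 days to 4.5 months (left) and from 4.5 to 20 months (right), filled where the adjusted p was under 0.05. Ptx3 and Masp1 have the largest falls at left, and the genes of the brain complement regulators that pass at right lie below 0.

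The genes whose levels were most like those of a complement gene over the 31 mice were S100b (Pearson r 0.969), Il33 (0.967) and Socs5 (0.959) for C1qa, and Apod (0.973), Rnf13 (0.969) and Ttc33 (0.963) for C4a/C4b. For Serping1 they were Fmod (0.912), Vtn (0.909) and Itih2 (0.901). These values are descriptions over mice that share 5 ages and, for Serping1, a varying amount of the meningeal markers. The chains of C1q were related over all mice at r of 0.789 for C1qa with C1qb, 0.867 for C1qa with C1qc and 0.796 for C1qb with C1qc. Within groups the same pairs gave -0.122, -0.183 and 0.452.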

How the data were processed

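Hippocampal RNA of 31 mice was measured on Affymetrix arrays. The authors deposited 1 table of MAS5 signal intensities, which are linear and, by the labels, without a stated version. The paper's RMA values, SAM, Cyber-T and EDGE were not used here, and limma took their place. Values were put on the log2 scale and quantile normalized across all arrays after 64 control probe sets were set aside. Probe sets above the array median on at least 3 arrays were tested. Limma 3.58.1 in R 4.3.3 fitted a mean for each of 10 groups with a moderated spread (trend, robust). P values were adjusted by the Benjamini-Hochberg method over all 26877 probe sets, and calls used an adjusted p under 0.05. A gene is shown by its probe set of highest mean. The annotation gives 1 gene for 34945 probe sets, several genes for 932 and no gene for 9160, and gene identifiers updated the symbols of 34741. Percentages of all genes are over 12845 genes. The number of arrays limits the precision.

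Each array held 1 mouse, the deposit has 4 wt mice at 10 days where the paper's methods give 3, and the probe sets of Glud1 lie outside the transgene and do not check the genotype labels. Whether mice shared litters is not given in the sources used here.

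The members and lists were chosen with earlier results of these data known. Named were all members, in each role of the pathway the 3 tested genes of smallest p, and the 3 genes of highest correlation with C1qa, C4b and Serping1. Alternatives were no quantile normalization, an offset of 50, all probe sets kept, a stricter filter (mean signal over the 60th percentile), a replicate block, the median over probe sets, other ages as reference, ages fitted alone, leaving out each mouse and marker covariates. Deviations from group means were related by permutation within groups. The model was tested on simulated data.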

Additional observations from a re-analysis of the deposited data

Results flagged for a closer look

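Among the 4 wt mice at 10 days, 1 mouse lay apart from the others in C1qa, with a signal of 924.9 against 1121 to 1188, and on the log2 scale its gap to the nearest of them was 0.853 of the range of the group. In C4a/C4b another mouse lay apart, with a signal of 322.3 against 236.9 to 249.6, and the gap was 0.9 of the range. The test used was Dixon's at the 95% level, run on the 10 tested probe sets in this group, and chance flags about 1 group in 20. Both genes rose from 10 days to 4.5 months also when any single mouse was left out.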

How the results depend on the processing

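The counts of complement genes that passed moved little. From 10 days to 4.5 months they were 4 or 5 under all alternatives run, and from 4.5 to 20 months 3 to 5, of 7 genes tested, or of 5 where the stricter filter (mean over the 60th percentile) left 4 and 3. Tg and wt mice differed in 0 genes on the mean over ages and in 0 interactions under the alternatives run for them. Leaving out each mouse gave 5 to 5 genes for the first interval, 3 to 5 for the second, and 0 to 1 for the comparison of genotypes at one age, where the 1 was C1qc without wt replicate 1 of 9 months.

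Values that turned sign had not passed, except for C1qb. C1qb was at -0.12 to 4.5 months with the median over its probe sets, which were at 0.34, -0.18 and -0.18 in the main fit. C3ar1 was at 0.31 without quantile normalization, at 0.28 with 9 months in place of 4.5, at 0.10 with the replicate block and between -0.16 and 0.11 with each mouse left out, and at 0.72 from 4.5 to 20 months with the median over probe sets. Serping1 was at 0.017 without quantile normalization, at 0.23 with 9 months and at 0.89 with the meningeal covariate, which was chosen after seeing the data. For C3ar1 and Serping1 the cause was not tested.

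Itgam no longer passed from 4.5 to 20 months without quantile normalization (0.33), without the filter (0.43) and from 9 months (0.20), nor to 4.5 months with the meningeal covariate (0.37, adjusted p = 0.0969). C1qc passed from 9 to 20 months (0.19, adjusted p = 0.0291). Serping1 passed from 4.5 to 20 months without Tg replicate 3 (0.85) or wt replicate 3 (0.83) of 20 months. Without wt replicate 1 of 9 months it passed at 0.66 (adjusted p = 0.0463).

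Replicate numbers shared by Tg and wt mice were not treated as pairs in the main fit. The deviations of 15 such pairs had correlations from -0.112 to 0.055, which cannot show whether such mice shared a litter or a batch. With the replicate block the counts of complement genes were 5, 4, 0, 0 and 0, as without it. Fitting the arrays of each age alone gave 0 genes between Tg and wt, and it does not apply to the mean over ages. Low signals limit C3ar1 and Itgam most.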
